A study of Mus musculus with 12 samples.

Results

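The proteasome genes were examined in the pituitaries of wild-type and Crhr1 knockout mice. Crhr1 is the receptor through which pituitary cells answer corticotropin-releasing hormone. A gene belonged to the set if the symbol of its probe in the array's probe table began with Psm, followed by a letter from a to g and a digit, and each gene was read from its probe with the highest mean signal. The pattern took 48 of the 17658 genes that the probe table names on the array, through 76 probes. It also took Psmc3ip, a protein of meiotic recombination, and Psme3ip1, which are not subunits, so 46 genes are subunits, activators or assembly chaperones. The rule uses gene names and brightness and no comparison between groups, but the set was chosen with earlier results of these data known.

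Per the labels, wild-type and Crhr1 knockout mice formed 3 treatments each, a control and death 1 h or 3 h after the start of 30 min of restraint in a tube. All groups, controls included, carry the label of metyrapone, a blocker of corticosterone synthesis, with a first dose of 150 mg/kg 12 h ahead of the stress and a second dose of 100 mg/kg immediately ahead of it. Each of the 6 groups had 2 arrays, 12 in all, hybridised with pooled RNA that had been amplified once. The titles call these arrays technical replicates, and they are treated here as 2 arrays of 1 pool per group, so p-values between groups measure the spread between arrays and not between mice. Strain, age, sex, the number of mice in a pool and the kind of Crhr1 allele are not given in the sources used here. For knockout control and knockout 3 h arrays the source field names death at 1 h, against their titles, and the titles were followed. Array 1 of every group lay on one slide and array 2 on the other, and each group kept the same place on both slides, so that place and group cannot be told apart.

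The proteasome is the protease that removes ubiquitin-tagged proteins from the cytosol and nucleus. Its barrel-shaped core is built from outer alpha rings, which gate the entrance, and inner beta rings, which hold the cutting sites of Psmb5, Psmb6 and Psmb7. A regulatory particle with an ATPase ring (Psmc genes) and further subunits (Psmd genes) binds tagged proteins, unfolds them and feeds them to the core, while the Psme activators open the core in other ways and chaperones assemble it. In cells exposed to interferon, and at all times in many immune cells, Psmb8, Psmb9 and Psmb10 replace the standard cutting subunits to form the immunoproteasome, which trims peptides for display on MHC class I molecules. In secretory tissue such as the pituitary the proteasome also degrades misfolded proteins exported from the endoplasmic reticulum.

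The tissue label was checked first. All 7 hormone genes on the marker list, Pomc, Gh, Prl, Tshb, Lhb, Fshb and Cga, passed the detection filter. Of the 3 Crhr1 probes, one was detected on 4 of 6 wild-type and 0 of 6 knockout arrays, and the others were detected on 1 array per genotype or on none. The second knockout 3 h array stood apart, with 6119 detected probes against 9212 to 13506 on the other arrays and a correlation with its partner of 0.908 over all probes, against 0.966 to 0.980 within the other groups. It detected 33 of the 48 proteasome genes, and the other arrays detected 37 to 42. For the knockout 3 h group, the calls of proteasome and partner genes are therefore also given without it. So are the interactions of single proteasome genes and the main medians over all proteasome genes. Marker values, and the medians of the immunoproteasome genes, the markers and the partner lists, are given only with it. In bulk tissue, fewer cells of a type and less RNA per cell cannot be told apart.

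Of the 48 genes, 43 passed the filter of a detection p-value under 0.01 on at least 2 arrays, and 32 were detected on all 12. The probes of Psma5, Psma6, Psma8, Psmb11 and Psmg3 did not pass. Psma8 and Psmb11 are forms known from testis and thymus, while Psma5 and Psma6 are constitutive alpha ring subunits. No level is given for any of the 5. Intensities are on a log2 scale after background correction and quantile normalization, on which a step of 1 is a doubling of the light measured. Probes differ in how brightly they bind, so levels are compared only between arrays for the same probe.

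The core of the particle varied little between the 6 groups. Psma2, an alpha ring subunit, spanned 0.09 log2 units between its highest and lowest group mean, and Psmb4, a beta ring subunit, spanned 0.18. Psma2 lay between 12.05 and 12.41 on all 12 arrays. Over the 5 alpha ring genes that passed the filter the median span was 0.32 and the widest 0.53, and over the 7 beta ring genes the median was 0.30 and the widest 0.43. The widest alpha ring gene was Psma1, at 8.91 and 8.09 in wild-type controls, 9.01 and 8.57 at 1 h, 8.66 and 8.40 at 3 h, 9.01 and 8.60 in knockout controls, 8.72 and 7.84 at 1 h and 8.63 and 8.04 at 3 h. Array 1 was above array 2 in every group for this gene, and the widest gap between the arrays of a pool was larger than the span of the group means. The widest beta ring gene was Psmb3, at 10.63 and 10.47 in wild-type controls, 10.49 and 10.38 at 1 h, 10.75 and 10.51 at 3 h, 10.99 and 10.5 in knockout controls, 10.85 and 10.90 at 1 h and 10.81 and 10.45 at 3 h. For Psmb3, 4 knockout arrays, both at 1 h and the first of control and 3 h, were above every wild-type array, and the remaining knockout arrays overlapped the wild type.

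The regulatory particle held both steady and variable genes. Psmc5, an ATPase of the ring, spanned 0.15 and Psmd10, an assembly chaperone of the ATPase ring also known as gankyrin, spanned 0.16. The medians were 0.69 over the 6 ATPases, 0.60 over the 11 further subunits, 0.57 over the 3 assembly chaperones, 0.68 over the 4 activators and 0.80 over the 2 core assembly chaperones that passed. Across all 43 genes the median span was 0.57, against 0.72 over all 11731 features tested. The median SD between the arrays of a pool was 0.261 over all features and 0.159 over those detected on all 12 arrays, so the comparison was repeated over the latter. There the median span was 0.42 for 32 proteasome genes and 0.58 for 5008 features, and 71.9% of the proteasome genes against 51.4% of the features stayed within a 1.5-fold span. The median log2 intensity was 9.78 for these proteasome probes and 8.97 for these features, so brightness still differed, and its part in the smaller span was not tested.

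**Figure D1:**
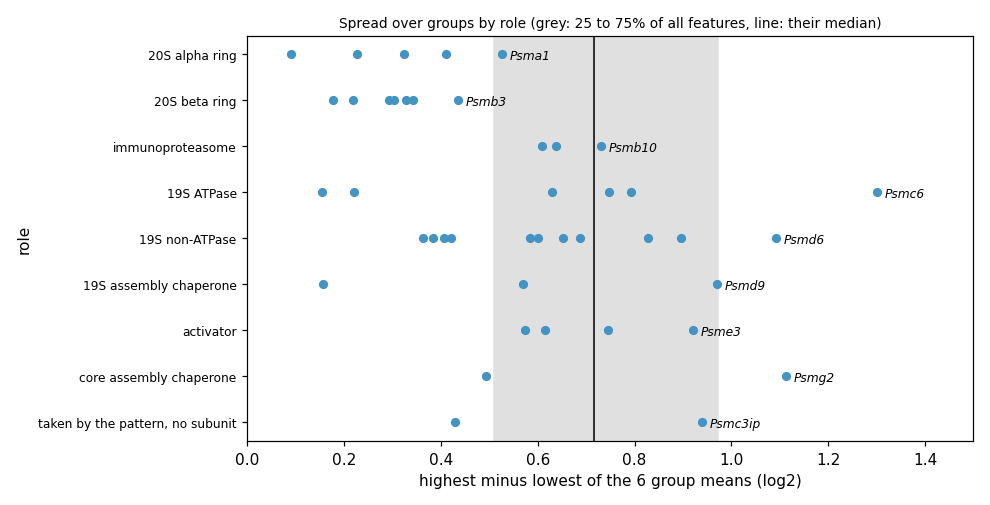
Span between the highest and lowest of the 6 group means (x axis, log2 units) for each of the 43 genes, in rows by role, with the interquartile range and median of all 11731 features in grey and black. All alpha and beta ring genes lie left of the median of 0.72, and Psmc6, Psmg2 and Psmd6 lie farthest right.

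The widest ATPase, Psmc6, was detected on 2 of the 12 arrays, the first 3 h array of each genotype. Its log2 intensity was 4.89 and 4.81 in wild-type controls, 5.03 and 5.27 at 1 h, 6.16 and 5.36 at 3 h, 5.97 and 5.17 in knockout controls, 5.01 and 5.33 at 1 h and 6.26 and 6.05 at 3 h. Most of these values lie in the background, and no fold is given. Psmd6, a lid subunit and the widest of the further subunits, was at 5.97 and 6.69 in wild-type controls, 5.60 and 6.53 at 1 h, 7.54 and 6.35 at 3 h, 5.77 and 5.93 in knockout controls, 6.08 and 6.51 at 1 h and 7.62 and 5.38 at 3 h. Both high values came from 3 h arrays of the first slide. The gene was detected on 5 of the 12 arrays, and neither the first wild-type control array nor any knockout array but the first at 3 h detected it, so no fold is given. Its second detected probe was at 6.29 and 5.68 in wild type at 3 h and at 6.80 and 4.93 in knockout at 3 h, so the first-slide arrays were the higher ones there too.

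The slides also differed at 3 h, in sign or size, for 4 other genes of the regulatory particle, which were singled out after their values were seen. Psmd14, the enzyme that cuts ubiquitin chains off the substrate, was higher at 3 h than in controls by 1.59 in wild type and 0.20 in knockout on the first slide, and the second slide gave -0.22 and -0.61. Psmd12, a scaffold subunit of the lid, differed by 1.47 and 0.92 on the first slide and by 0.32 and -0.03 on the second. Neither gene passed the test at 3 h in either genotype (limma, adjusted p = 0.438 to 0.804). Psmc2, an ATPase, was at 5.59 and 7.20 in wild-type controls and at 7.53 and 5.79 at 3 h, with the first control array and the second 3 h array below detection, so the order was opposite on the slides. Psmd11, a lid subunit detected on 3 of the 12 arrays, was at 5.31 and 6.63 in wild-type controls and at 6.07 and 6.11 at 3 h. The assembly chaperone Psmd9 was detected on 2 arrays, at 6.27 on the first wild-type control array and at 7.78 on the second knockout 3 h array, where its partner read 5.65. The other wild-type arrays read 5.32 to 5.85 and the other knockout arrays 5.54 to 6.15, so its high group mean rests on the array that stood apart. Psmc3ip, the meiotic gene, was at 6.36 and 6.35 in wild-type controls, 6.26 and 5.70 at 1 h, 6.29 and 6.99 at 3 h, 6.59 and 6.46 in knockout controls, 6.0 and 6.05 at 1 h and 6.38 and 5.03 at 3 h, with the lowest value on the same array.

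**Figure D2:**
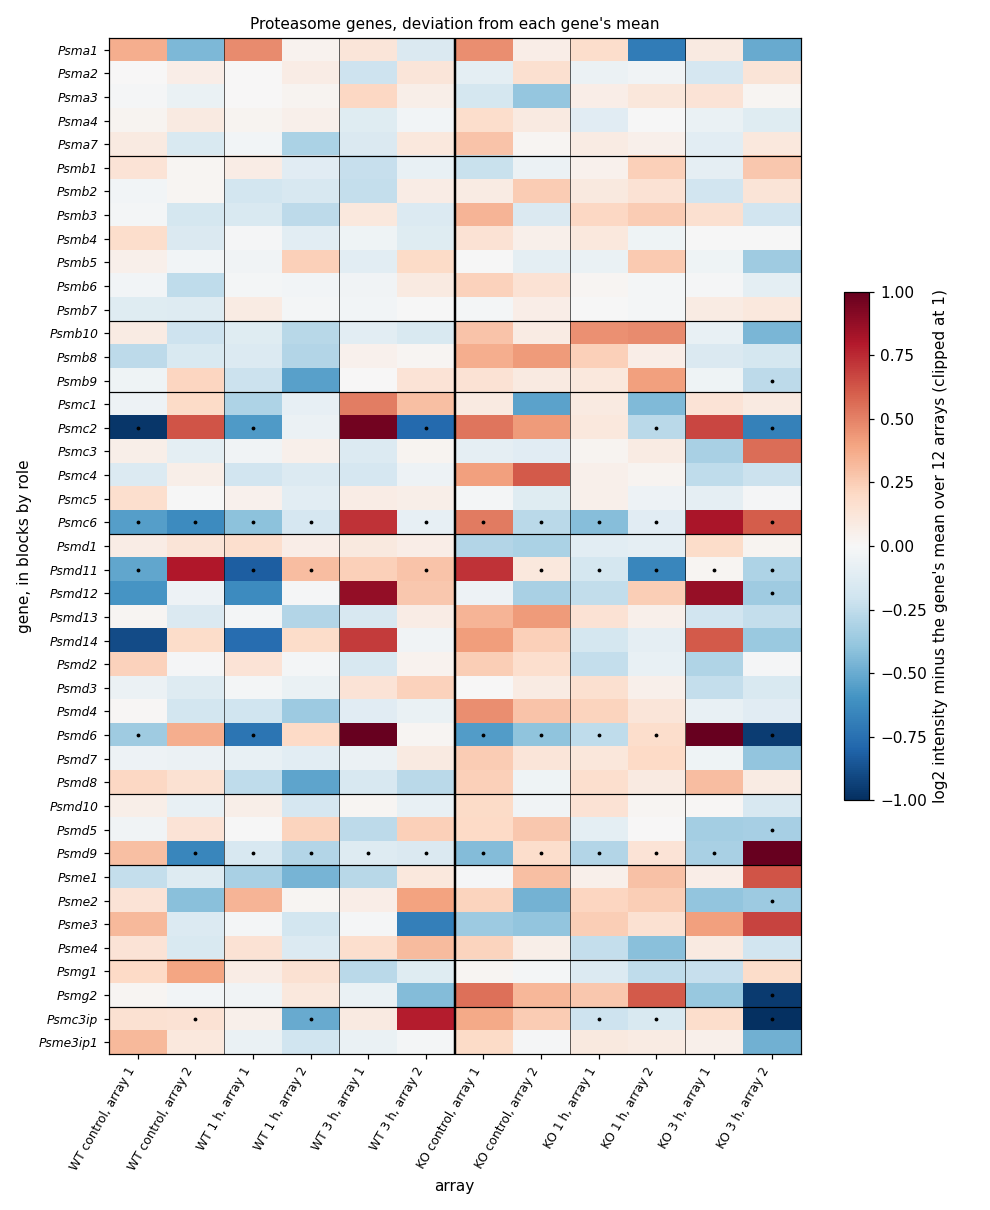
Log2 intensity of the 43 genes on each of the 12 arrays as a deviation from the gene's own mean (colour, clipped at 1 log2 unit), with genes in blocks by role and a dot where the probe was not detected. The core rings at the top are pale on most arrays, with stronger colour for Psma1. Psmc4, Psmd13 and Psmb8 are red in knockout controls, and Psmd6 is dark red on the first 3 h array of each genotype.

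The first comparison asked how the genes answered restraint within a genotype. A gene was counted as past the threshold at an adjusted p under 0.05 (limma, Benjamini-Hochberg over all 11731 features) and a change of at least 1.5-fold. In wild-type pituitaries 0 of 43 passed at 1 h, where 0.0682% of all features did, and 0 passed at 3 h, where 0.23% did. In knockout pituitaries 0 passed at 1 h, against 0.23% of all features. At an unadjusted p under 0.05 the counts were 2, 3 and 4 proteasome genes, which are 4.65%, 6.98% and 9.3% of the 43, against 5.64%, 12% and 13.1% of all features. The median difference over the 43 genes was -0.05 at 1 h and 0.02 at 3 h in wild type and -0.03 at 1 h in knockout, and over all features it was -0.01, -0.02 and -0.03.

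In knockout pituitaries at 3 h, 4 of 43 genes passed, which is 9.3% against 10.6% of all features. Psmc4, Psmd13 and Psmg2 fell and Psme3 rose, so 6.98% fell and 2.33% rose, against 6.56% and 4.03% of all features. At an unadjusted p under 0.05 there were 11 genes (25.6%, against 29.4%). The share of proteasome genes past the threshold was thus near that of the whole array. Relative to the median of all features, which was -0.11 in this comparison, the median of the 43 genes was lower by 0.09 log2 units, at -0.19. Over the 38 genes left without the immunoproteasome genes and the non-subunits it was -0.15. Of the 43 genes, 14 lay above 0 (32.6%, against 41.8% of all features), and 34 had the same sign on both slides (79.1%, against 67.6% of all features). The shift relative to the array did not hold on both slides, since the median was -0.18 against -0.01 for all features on the first slide and -0.18 against -0.22 on the second. Without the second knockout 3 h array it was -0.16 against -0.00359 for all features, and with median centring the gap was -0.26. The summed linear intensity of endothelial markers, from the 5 of 6 that passed the filter, was 1799 to 2036 on knockout 3 h arrays. It was 1222 to 1564 on all others, with Kdr below the filter. Of the 5, Plvap passed the threshold upward from knockout control to 3 h (limma adjusted p = 0.00979) and 3 lay above 0. Pecam1 (-0.06) and Cdh5 (-0.05) did not rise. Posterior lobe and glial markers summed to 520 to 550 on knockout 3 h arrays, 682 to 795 on the other knockout arrays and 548 to 656 on wild-type arrays, from Mbp and Oxt, the 2 that passed the filter. The part of these shifts in the results was not tested.

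Psmc4, an ATPase of the ring that unfolds substrates, was at 9.96 and 10.17 in wild-type controls, 9.92 and 9.97 at 1 h, 9.93 and 10.05 at 3 h, 10.51 and 10.72 in knockout controls, 10.16 and 10.13 at 1 h and 9.85 and 9.89 at 3 h. The knockout control arrays were the highest of all 12 and the knockout 3 h arrays the lowest, with the 1 h arrays between them. From knockout control to 3 h it fell by 0.75 (SE 0.149, n = 2 arrays per group, limma adjusted p = 0.0198), by 0.66 on the first slide and 0.83 on the second. Without the second knockout 3 h array the difference was -0.77, with an adjusted p of 0.0501. In knockout at 1 h it was -0.47 (adjusted p = 0.260), and in wild type at 3 h it was -0.07 (adjusted p = 0.889).

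Psmd13, a lid subunit, was at 9.82 and 9.65 in wild-type controls, 9.77 and 9.51 at 1 h, 9.64 and 9.87 at 3 h, 10.14 and 10.22 in knockout controls, 9.95 and 9.84 at 1 h and 9.60 and 9.56 at 3 h. Here too both knockout control arrays were above the other 10, and the knockout 3 h arrays lay within the wild-type range. It fell by 0.60 (SE 0.162, limma adjusted p = 0.0472), by 0.54 and 0.67 on the slides, and without the second knockout 3 h array the difference was -0.58 with an adjusted p of 0.120. A second, dimmer probe of the gene did not show this, at 8.64 and 8.74 in knockout controls and 8.51 and 8.63 at 3 h, a difference of -0.12. The fall of Psmd13 therefore rests on 1 of its 2 detected probes.

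Psmg2 forms, with Psmg1, a chaperone that helps the alpha ring to close. It was at 7.73 and 7.69 in wild-type controls, 7.68 and 7.82 at 1 h, 7.64 and 7.28 at 3 h, 8.26 and 8.05 in knockout controls, 7.98 and 8.33 at 1 h and 7.33 and 6.75 at 3 h, and the last of these arrays did not detect it. The 4 knockout control and 1 h arrays were above all wild-type arrays, and the lowest value came from the array that stood apart. It fell by 1.11 at 3 h (SE 0.231, limma adjusted p = 0.0219), by 0.93 on the first slide and 1.29 on the second, and without that array the difference was -0.82 with an adjusted p of 0.0758. Its partner Psmg1 differed by -0.02.

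Psme3 encodes the nuclear activator ring that opens the core for proteins without a ubiquitin tag. It was at 8.33 and 7.87 in wild-type controls, 7.99 and 7.82 at 1 h, 8.0 and 7.32 at 3 h, 7.64 and 7.62 in knockout controls, 8.26 and 8.16 at 1 h and 8.42 and 8.68 at 3 h. The knockout 3 h arrays were the highest of all 12, and the knockout control arrays lay in the lower part of the wild-type range. From knockout control to 3 h it rose by 0.92 (SE 0.244, limma adjusted p = 0.0443), by 0.78 and 1.07 on the slides, and without the second 3 h array the difference was 0.79 with an adjusted p of 0.143. In wild type at 3 h it was -0.44 (adjusted p = 0.508).

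**Figure D3:**
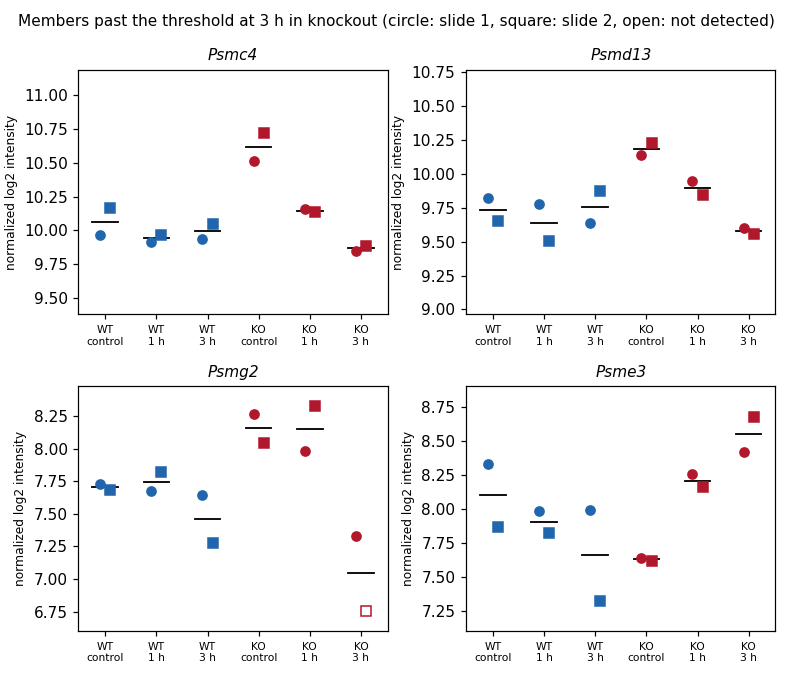
Normalized log2 intensity (y axis) of the 4 genes past the threshold in knockout at 3 h, for both arrays of each group (circle slide 1, square slide 2, open where not detected) with the group mean as a line. Psmc4, Psmd13 and Psmg2 are lower and Psme3 is higher at 3 h than in controls on both slides in knockout.

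Whether the 3 h response differed between the genotypes was tested with an interaction term. None of the 43 genes passed, against 0.435% of all features, and 6 genes had an unadjusted p under 0.05 (14%, against 18% of all features). Psme3 had the smallest adjusted p, with an interaction of 1.36 (SE 0.345, limma adjusted p = 0.104). The interactions were -0.67 for Psmc4 (adjusted p = 0.159), -0.62 for Psmd13 and -0.87 for Psmg2 (adjusted p = 0.219). Without the second knockout 3 h array they were 1.23 for Psme3 (adjusted p = 0.168), -0.69 for Psmc4, -0.60 for Psmd13 and -0.57 for Psmg2 (adjusted p = 0.197 to 0.375). At 1 h 0 genes passed, against 0.0511% of all features, 2 had an unadjusted p under 0.05 (4.65%, against 10.2%), and the smallest adjusted p was 0.458. The 4 calls at 3 h in knockout are thus not shown to be particular to the knockout.

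The count of 4 rests on a few arrays and on the scaling. It fell without either array of knockout control, wild-type control, wild-type 1 h or knockout 1 h. It also fell without the second knockout 3 h array and rose without the first. The number of all features past the threshold moved the same way each time. With median centring in place of quantile normalization the count was 0, where 165 of all 11731 features passed. All 4 genes kept their direction there.

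**Figure D4:**
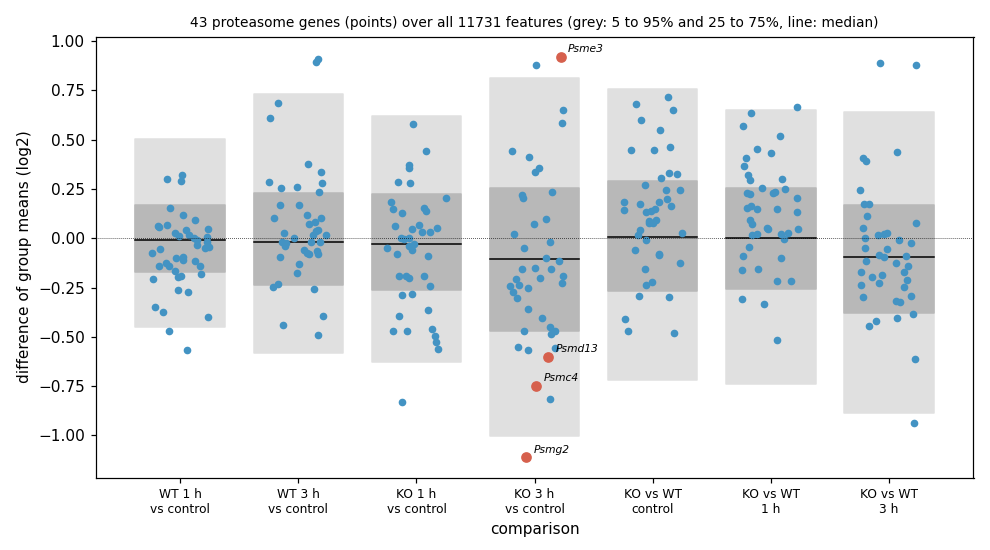
Differences of group means (y axis, log2) for the 43 genes as points in 7 comparisons, over the 5 to 95% and 25 to 75% ranges and the median of all 11731 features in grey and black, with genes past the threshold in red. In knockout at 3 h the 4 red points are Psme3 at 0.92, Psmd13 at -0.60, Psmc4 at -0.75 and Psmg2 at -1.11.

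The stretches of genome before 3 of these genes are shown because their measured transcripts changed in the same comparison, and that of Psmb8 because it is the immunoproteasome gene with the smallest adjusted p. RefSeq windows of the GRCm38.p6 assembly from 250 bases before to 50 after the start were given for 40 of the 48 genes, and those of Psma8, Psmb1, Psmb2, Psmb7, Psmc3, Psmd3, Psmd7 and Psmg2 were not used here. Each is printed on the strand of its gene, and capitals mark matches to any of 4 motifs, searched on both strands. The windows are chr7:28050043-28050342 on the minus strand for Psmc4, chr7:140882144-140882443 on the plus strand for Psmd13, chr11:101315963-101316262 on the plus strand for Psme3 and chr17:34197945-34198244 on the plus strand for Psmb8.
Psmc4: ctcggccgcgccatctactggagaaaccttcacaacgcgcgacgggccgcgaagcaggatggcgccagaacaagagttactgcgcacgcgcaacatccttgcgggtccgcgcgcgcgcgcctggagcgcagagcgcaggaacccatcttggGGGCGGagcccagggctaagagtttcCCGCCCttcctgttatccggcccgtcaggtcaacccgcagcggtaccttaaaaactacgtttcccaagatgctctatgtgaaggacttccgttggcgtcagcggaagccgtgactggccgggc
Psmd13: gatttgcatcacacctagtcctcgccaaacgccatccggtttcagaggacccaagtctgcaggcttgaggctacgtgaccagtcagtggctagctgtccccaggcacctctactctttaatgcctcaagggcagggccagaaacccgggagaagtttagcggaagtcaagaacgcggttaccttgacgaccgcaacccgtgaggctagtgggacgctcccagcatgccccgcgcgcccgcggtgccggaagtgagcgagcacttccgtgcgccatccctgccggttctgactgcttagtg
Psme3: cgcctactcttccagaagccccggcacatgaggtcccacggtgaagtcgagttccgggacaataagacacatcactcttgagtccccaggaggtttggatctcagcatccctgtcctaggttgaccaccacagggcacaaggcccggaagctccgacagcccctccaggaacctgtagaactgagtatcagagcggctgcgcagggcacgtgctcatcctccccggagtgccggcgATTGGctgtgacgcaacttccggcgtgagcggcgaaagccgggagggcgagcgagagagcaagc
Psmb8: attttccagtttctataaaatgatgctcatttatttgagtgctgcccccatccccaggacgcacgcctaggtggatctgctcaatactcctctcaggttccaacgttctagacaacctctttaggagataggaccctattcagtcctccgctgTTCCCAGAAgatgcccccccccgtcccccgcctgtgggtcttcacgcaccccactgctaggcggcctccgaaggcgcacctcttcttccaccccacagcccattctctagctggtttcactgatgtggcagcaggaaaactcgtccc
The capitals in Psmc4 are 2 GC boxes (GGGCGG), that in Psme3 is 1 CCAAT box (CCAAT, read on the minus strand) and that in Psmb8 is 1 core of the gamma-activated site (TTCNNNGAA), the element bound by STAT factors after interferon. Psmd13 held none of the motifs. The GC box was in 23 of the 40 genes and in 54.5% of their 44 windows, against 35.7% of all 32851 windows in the table. The CCAAT box was in 16 genes and 36.4% of windows against 37.4%, and the gamma-activated core was in 3 genes, Psmb8, Psmd2 and Psmg1, and 6.82% of windows against 8.3%. The core of the antioxidant response element (TGACNNNGC), through which the factor Nfe2l1 is known to raise proteasome genes when the protease is blocked, was in 6 genes, Psmb5, Psmb6, Psmc6, Psmd9, Psmd12 and Psme4, and 13.6% of windows against 12.4%. The motifs do not overlap in the printed windows, and a match describes letters only.

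The 3 immunoproteasome genes were examined apart. In knockout pituitaries at 3 h all 3 lay below their controls, by a median of -0.45, without passing the threshold. That median includes the second knockout 3 h array, which did not detect Psmb9. Psmb8, which replaces Psmb5, was at 8.10 and 8.22 in wild-type controls, 8.23 and 8.08 at 1 h, 8.41 and 8.38 at 3 h, 8.73 and 8.80 in knockout controls, 8.61 and 8.43 at 1 h and 8.23 and 8.19 at 3 h. The knockout control arrays were the highest of the 12, and the knockout 3 h arrays were back within the range of wild-type controls and 1 h. Its 3 h difference of -0.55 had an adjusted p of 0.0424 (limma, SE 0.144) and fell short of 1.5-fold, and without the second 3 h array it was -0.54 with an adjusted p of 0.106. In controls it was higher in knockout by 0.60 (adjusted p = 0.0660), and the interaction at 3 h was -0.79 (adjusted p = 0.107), or -0.77 without that array (adjusted p = 0.152). A second probe of Psmb8, detected on all 12 arrays, gave -0.19 at 3 h and 0.05 between the controls, so the probes disagree.

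Psmb9, which replaces Psmb6, was at 7.68 and 7.94 in wild-type controls, 7.50 and 7.17 at 1 h, 7.72 and 7.86 at 3 h, 7.87 and 7.81 in knockout controls, 7.82 and 8.13 at 1 h and 7.67 and 7.46 at 3 h. The wild-type 1 h arrays included the lowest value of the 12, and the knockout 1 h arrays were both above them. At 1 h the knockout was higher by 0.64 (SE 0.189, limma adjusted p = 0.143). Psmb10, which replaces Psmb7, was at 8.35 and 8.06 in wild-type controls, 8.14 and 7.99 at 1 h, 8.16 and 8.12 at 3 h, 8.55 and 8.35 in knockout controls, 8.72 and 8.74 at 1 h and 8.20 and 7.81 at 3 h. The knockout 1 h arrays were the highest of the 12, 0.67 above the wild type (SE 0.183, adjusted p = 0.120). From knockout control to 3 h Psmb10 differed by -0.45 (adjusted p = 0.141), and its second probe by -0.46. Without the second knockout 3 h array, the first probe differed by -0.26.

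**Figure D5:**
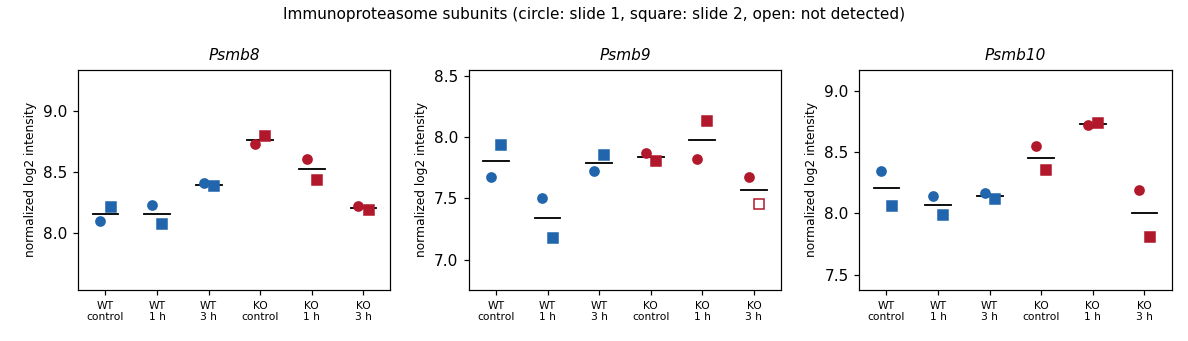
Normalized log2 intensity (y axis) of the 3 immunoproteasome genes on both arrays of each group (circle slide 1, square slide 2, open where not detected), with the group mean as a line. Psmb8 is highest in knockout controls and Psmb10 in knockout at 1 h, and none of the 3 passed the threshold in any of the comparisons.

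Leukocytes carry the immunoproteasome at a high level, so their markers are given beside these genes. Of 11 leukocyte and macrophage markers 9 had a probe and 8 passed the filter, with Ptprc, Cd68 and Csf1r below it or without a probe. The summed linear intensity of the 8 was 1235 to 1312 in wild-type controls, 1181 to 1328 at 1 h and 1467 to 1532 at 3 h, and 1675 to 1765 in knockout controls, 1727 to 1769 at 1 h and 1833 to 1836 at 3 h. All 6 knockout arrays were thus above all 6 wild-type arrays. Only Cd74 and Laptm5 were detected on all 12 arrays. C1qb was detected on 7, Lyz2 on 6, Tyrobp and C1qa on 4, and Aif1 and Fcer1g on 3. Many values behind the signs and medians that follow therefore lie below detection. Between the controls 6 of the 8 markers were higher in knockout, with a median of 0.27, and Laptm5 passed the threshold upward (limma adjusted p = 0.0366). From knockout control to 3 h 2 of the 8 lay above 0, with a median of -0.27, and Lyz2 passed the threshold upward (adjusted p = 0.0245), so the sum and most of the single markers differed in direction. The part of these markers in the immunoproteasome values was not tested.

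The third question was how the genotypes differed at each treatment. None of the 43 genes passed in controls, at 1 h or at 3 h, where 2.33%, 0.793% and 1.73% of all features passed, and 6, 6 and 5 genes had an unadjusted p under 0.05, which are 14%, 14% and 11.6% against 19%, 16.1% and 17.9% of all features. In controls 30 of the 43 genes were higher in knockout (69.8%, against 50.8% of all features), with a median of 0.14 against 0.01. At 1 h 32 were higher (74.4%, against 50.4%), with a median of 0.15 against 0.00. At 3 h 15 were higher (34.9%, against 40.4%), with a median of -0.10 against -0.09, or -0.0399 against 0.0179 without the second knockout 3 h array. Without the immunoproteasome genes and the non-subunits, the medians of the other 38 were 0.14 in controls, 0.11 at 1 h and -0.07 at 3 h. Of 15 further detected probes of the 43 genes, 7 had the sign of the brightest probe in controls and 7 at 1 h. The direction in these 2 comparisons thus rests on the brightest probes. The comparisons at different times use different arrays, and single genes carried the pattern weakly. In controls the smallest adjusted p-values were those of Psmb8, given above, and of Psmc4, which differed by 0.55 (SE 0.149, limma adjusted p = 0.0905). With median centring the medians relative to all features were 0.15 in controls and 0.15 at 1 h, against 0.13 and 0.14 with quantile normalization, although the uncorrected median in controls was then 0.01.

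Over all 3 treatments, with the mean of each pool as 1 value, 4 of the 43 genes had every knockout pool above every wild-type pool (9.3%, against 5.47% of all features) and 0 had every knockout pool below (against 9.38%). These orders flipped with the scaling, since median centring gave 0 genes above and 8 below, against 1.1% and 24.8% of all features. The 4 genes, named after their values were seen, were Psma7, Psmb3, Psmd9 and Psme1. Such an order of 3 against 3 pools fixes the exact two-sided permutation p at 0.1, the smallest possible. That p therefore adds nothing to the order by which the genes were picked. The lowest knockout pool and the highest wild-type pool nearly tied for Psma7 (9.726 and 9.711), Psmb3 (10.629 for both) and Psmd9 (5.841 and 5.84). For Psme1 they were 9.916 and 9.685. Psmd9 was detected on 2 arrays, and the second probe of Psmb3 was lower in knockout at 1 h (-0.07) and 3 h (-0.17). Without the second knockout 3 h array the 4 were Psmb3, Psmd4, Psmd10 and Psme1. In the fit over pools 0 genes passed for genotype, where 0.0511% of all features did, and 0 passed for 1 h or for 3 h, where 0% did. At an unadjusted p under 0.05 there were 1, 1 and 4 genes, or 2.33%, 2.33% and 9.3%, against 10.6%, 1.94% and 10.9% of all features.

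Psme1 encodes a subunit of the activator ring that interferon induces and that works with the immunoproteasome. It was at 9.53 and 9.64 in wild-type controls, 9.45 and 9.31 at 1 h, 9.49 and 9.88 at 3 h, 9.76 and 10.07 in knockout controls, 9.83 and 10.07 at 1 h and 9.84 and 10.40 at 3 h. Wild-type pools averaged 9.55 ± 0.16 and knockout pools 9.99 ± 0.11 (SD, n = 3 pools), a difference of 0.45 that did not pass in the fit over pools (limma, adjusted p = 0.439). It was 0.35 over pools without the second knockout 3 h array (adjusted p = 0.478). A second probe, also detected on all arrays, was at 8.12 and 7.49 in wild-type controls, 7.82 and 7.64 at 1 h, 7.87 and 7.73 at 3 h, 8.49 and 8.37 in knockout controls, 8.40 and 8.37 at 1 h and 8.53 and 8.03 at 3 h. On this probe 5 knockout arrays were above every wild-type array, and the remaining one was below a single wild-type array. Its differences between the genotypes were 0.63 in controls, 0.66 at 1 h and 0.48 at 3 h, beside 0.33, 0.57 and 0.44 for the first probe. The first probe differed by 0.15 at 3 h without the second knockout 3 h array (limma adjusted p = 0.866). With median centring the first probe's difference at 3 h turned to -0.14.

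Further probes were compared over all genes that had them. Among the 43 genes 13 had at least 1 further detected probe, 15 probes in all. In knockout at 3 h, 9 of the 15 had the sign of the gene's brightest probe, and in knockout at 1 h 4 of 15 did. In wild type 8 did at 1 h and 11 at 3 h. Between the genotypes 7 did in controls, 7 at 1 h and 11 at 3 h. Psmc5 read -0.71 on its second probe at 3 h in knockout although its brightest probe was among the steadiest of the set. Psmb7, a cutting subunit, read -0.57 on another probe and Psmb3 -0.47 on its second. Psmc4, Psmg2 and Psme3 each had a single detected probe, so their calls have no second probe to set beside them.

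Genes that work with the proteasome were listed separately. Of 37 symbols written for ubiquitin and proteasome regulators, 21 had a probe and 18 passed the filter. In knockout at 3 h 4 of the 18 fell and 0 rose, where 6.56% of all features fell and 4.03% rose. The median was -0.23, against -0.11 for all features. In wild type at 3 h 1 of the 18 fell, where 0.23% of all features passed in either direction. The gene that fell in both was Txnl1, a thioredoxin that sits on the regulatory particle, which was undetected on all 4 arrays of 3 h. It was at least 3.89-fold lower in wild type (limma adjusted p = 8.34e-04) and at least 1.95-fold lower in knockout (adjusted p = 1.73e-04), both bounds set against the dimmest probes measured on the 3 h arrays. Pomp, the chaperone that completes the core and is then its first substrate, was at 11.43 and 11.58 in knockout controls and 10.92 and 10.89 at 3 h, against 11.39 and 11.11 and 10.91 and 11.13 in wild type. It fell by 0.61 in knockout (SE 0.166, limma adjusted p = 0.0488), and without the second knockout 3 h array it did not pass (-0.59, adjusted p = 0.120). Ubqln1, which carries tagged proteins to the proteasome, was at 10.74 and 10.78 in knockout controls and 9.95 and 10.24 at 3 h, against 10.62 and 10.35 and 9.99 and 10.11 in wild type, and fell by 0.67 in knockout (adjusted p = 0.0429). Without that array its difference was -0.81 with an adjusted p of 0.0530. Over all 12 arrays the mean of its detected probes differed by -0.35 (adjusted p = 0.377). Ube3a, a ubiquitin ligase, also passed (adjusted p = 0.0458) but was not detected on either knockout 3 h array, and no fold is given. It did not pass without the second of these arrays (adjusted p = 0.0643), while Txnl1 did (adjusted p = 0.00123).

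Of 27 symbols for antigen processing and interferon partners of the immunoproteasome, 24 had a probe and 16 passed the filter. In knockout at 3 h 2 of the 16 fell and 1 rose, beside 6.56% and 4.03% of all features, and in each of the other comparisons 0 did. Tap2, a subunit of the transporter that moves proteasome peptides into the endoplasmic reticulum and the neighbour of Psmb8 on the chromosome, was at 9.25 and 9.23 in knockout controls, 9.05 and 8.86 at 1 h and 7.90 and 7.09 at 3 h. The wild-type arrays read 8.50 to 9.14, so both knockout 3 h arrays were below all others, and the second did not detect the gene. Tap2 fell by 1.74 (SE 0.258, limma adjusted p = 0.00950), and without that array the difference was -1.33 (adjusted p = 0.0237). H2-D1, an MHC class I heavy chain that has near-identical relatives, was at 11.50 and 11.62 in knockout controls and 10.74 and 10.93 at 3 h, both below every other array. It fell by 0.72 (SE 0.143, adjusted p = 0.0195), and without the second 3 h array the adjusted p was 0.0329. Irf1, a transcription factor of the interferon response, was at 7.19 and 7.45 in knockout controls, 7.64 and 7.73 at 1 h and 8.35 and 8.44 at 3 h. It rose by 1.07 (SE 0.226, adjusted p = 0.0228), and the wild-type arrays read 6.85 to 7.94, all below both knockout 3 h arrays. Without the second of these Irf1 did not pass (1.03, adjusted p = 0.0705). Relative to all features, the share of these lists past the threshold in knockout at 3 h, 4 of 18 and 3 of 16, stands beside 10.6% of the array. For the interaction at 3 h 0 of the 18 and 0 of the 16 passed, against 0.435% of all features. The calls of partner genes are thus not shown to be particular to the knockout.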

How the data were processed

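Pooled pituitary RNA of 6 groups was measured on 12 Illumina bead arrays, 2 per group, which the titles call technical replicates. The authors deposited the mean bead intensity of 46147 probes per array, raw per the file headers and the values, made with BeadStudio per the submitters' processing notes, version not stated. The deposited files also give a detection p-value per probe. A separate table of intensity values, already processed by the authors, served only as an alternative: its columns have medians of 9.70 to 9.71 on the linear scale, and 32.7% of its values are at or below 0, while its method is not stated. The 14 probes absent from that table were left out.

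Intensities were corrected with normexp (limma 3.58.1, R 4.3.3, background from the detection p-values, offset 16), quantile normalized and put on the log2 scale. Probes with a detection p-value under 0.01 on at least 2 arrays were kept, with the brightest per gene symbol, and unnamed probes stayed in, giving 11731 features, 8557 of them named. Of all probes, 29542 have 1 symbol, 11 several and 16594 none, and all 48 symbols matched RefSeq by gene ID. lmFit and eBayes with 1 term per group were run on all features, with Benjamini-Hochberg adjustment, and the threshold was an adjusted p under 0.05 and at least 1.5-fold. Pool means were fitted with genotype and treatment as additive terms, in which the spread is the departure from additivity, and single genes were set against an exact permutation test. The fit was tested on simulated data with 200 changed genes.

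The number of arrays limits the precision. Slides were compared by giving each difference within each slide. Whether same-numbered arrays pair was checked by correlating their deviations from the group means, which gave -0.16 to 0.48 over 15 pairs (median 0.16), so the numbers are not shown to pair samples beyond sharing a slide. Values were printed array by array for the immunoproteasome genes, the genes past the threshold and the widest gene of each role. Of the 2 partner lists, every gene past the threshold and the 2 with the largest difference in knockout at 3 h were named. The members, the lists and the tests were chosen with earlier results of these data known. Alternatives were background offset and correction, scaling, the authors' table, the detection filter, the probe rule, array weights, the samples in the fit, the minimum fold, the slide as a block and leaving out each array.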

Additional observations from a re-analysis of the deposited data

How the results depend on the processing

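With the slide as a replicate block, 4 proteasome genes passed in knockout at 3 h and 0 in each other comparison between groups, and Psmc4 had an adjusted p of 0.0138, Psmd13 of 0.0405, Psme3 of 0.0316 and Psmg2 of 0.0203, so the block changed no call.

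The count of 4 in knockout at 3 h was 0 with median centring and 0 with array quality weights, where 165 and 111 of 11731 features passed. It was 0 in a fit of only the groups compared (4 arrays, where 0 features passed at all). It was 2 with the authors' table, where 920 features passed, and 2 with no detection filter, where 688 of 34249 did. Leaving out single arrays moved it down or up, together with the number of all features. Elsewhere the count of 0 became 1 with no background correction for the interaction at 3 h (Psme3), where 369 of 11731 features passed. Over probes detected on all 12 arrays it became 1 between the controls (Psmb8). There it also became 1 between the genotypes at 1 h (Psmb10) and 1 at 3 h (Psme3). For the interaction at 3 h it became 3 (Psmb8, Psmc4 and Psme3). These are counts of 32 proteasome genes, beside 506, 320, 216 and 545 of 5008 features. Array weights gave 1 between the controls (Psmb8), beside 878 of 11731 features. Leaving out single arrays made calls between the controls, between the genotypes at 3 h and for the interaction at 3 h. More features passed in those fits too. These calls came without the first knockout 3 h array, and for the controls also without the second. No other omission made a call there. The cause of these changes, the smaller number of features or arrays included, was not tested.

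Median centring moved the median of all features to -0.24 in knockout at 3 h, -0.14 between the controls, -0.51 between the genotypes at 3 h, -0.36 for the interaction at 3 h and -0.23 for genotype over pools. The median of the proteasome genes was then 0.11 in wild type at 3 h, -0.50 in knockout at 3 h, 0.00832 between the controls, 0.0777 between the genotypes at 1 h, -0.62 at 3 h, 0.10 for the interaction at 1 h, -0.57 at 3 h, -0.19 for genotype over pools and -0.16 for 3 h over pools. Relative to all features it was -0.26 in knockout at 3 h, against -0.09 with quantile normalization. Without background correction the medians were -0.14 in knockout at 3 h, 0.0794 between the controls and 0.0917 between the genotypes at 1 h. Over probes detected on all 12 arrays the interaction at 3 h had a median of -0.13. With the mean of all detected probes the medians were 0.0792 between the controls, 0.0732 at 1 h, -0.17 at 3 h and -0.33 for the interaction at 3 h. Leaving out single arrays gave ranges of -0.0229 to 0.0742 in wild type at 3 h, -0.11 to 0.00297 in knockout at 1 h, -0.27 to -0.11 at 3 h, 0.0555 to 0.15 between the controls, 0.0797 to 0.16 at 1 h, -0.14 to -0.0399 at 3 h, -0.0322 to 0.0873 for the interaction at 1 h and -0.36 to -0.14 at 3 h.

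Among single genes, the difference of Psme1 between the genotypes at 3 h reversed to -0.14 with median centring. The alternatives counted next include leaving out arrays of groups not compared. That left the difference as it was and altered only its spread. Psmc4 and Psmg2 did not pass in knockout at 3 h with median centring, with array weights or in a fit of only the groups compared. Psmc4 and Psmg2 passed in knockout at 3 h under 17 of 23 and 16 of 22 alternatives, Psme3 under 9 of 23 and Psmd13 under 4 of 23, with adjusted p-values of up to 0.244, 0.242, 0.265 and 0.261. Of the partner genes in knockout at 3 h, Txnl1 passed under 21 of 22, Tap2 under 19 of 22, H2-D1 under 18 of 23, Irf1 under 16 of 23, Ubqln1 and Ube3a under 5 of 23 and 5 of 22, and Pomp under 4 of 23. The 2 alternatives of the order of pools, without the second knockout 3 h array and with median centring (0 above, 8 below), were chosen after the data were seen.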
